A study of Mus musculus with 24 samples.

Results

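Endothelial cells of the aorta were compared with endothelial cells of the leg muscle in wild-type (WT) C57BL/6 mice on chow. The members were the 6 arrays titled for WT, chow and either tissue, 3 per tissue, of the 24 arrays of the series. The mice were males, untreated and with no deleted gene, and the chow, with 12% of its calories from fat, was fed for 8 weeks from 8 weeks of age. In each of 3 trials the aortae (down to the iliac bifurcation) and the leg muscles (plantaris, gastrocnemius and biceps femoris) of 3 to 4 mice were pooled by tissue and digested, and about 10000 live CD105+/CD45- cells were sorted. Their RNA was amplified, labelled with Cy3 and hybridised to a single-colour Agilent whole mouse genome array, so that each array stands for a pool of mice. CD105 (endoglin) is the product of Eng, whose level was therefore set by the sort and is no finding. Each tissue and trial lay on a slide of its own, shared with the arrays of the other 3 groups of that tissue, so that slide and tissue cannot be told apart.

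The aorta is a conduit artery, lined by endothelium that meets pulsatile, high-pressure flow and surrounded by an elastic media, an adventitia of fibroblasts, lymphatics and nerves, and fat. In the mouse, the fat around the thoracic aorta has brown character. Most endothelium of skeletal muscle lines continuous capillaries, which pass oxygen, glucose and fatty acids to the fibres. Endothelial cells of different vessels carry different sets of transcription factors, matrix genes and receptors for vasoactive signals, on top of a shared set of endothelial genes such as Cdh5 (VE-cadherin) and the VEGF receptor Kdr.

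All levels below are log2 signals relative to the 75th percentile of the array, listed in the order of trials 1, 2 and 3, and all differences are the mean of the 3 aortic arrays minus the mean of the 3 muscle arrays. Between 64.8% and 65.7% of the spots of the aortic arrays and between 59.8% and 73.3% of those of the muscle arrays were well above background, and no spot was saturated. The muscle arrays correlated with each other at 0.964 to 0.966 over the probes and the aortic arrays at 0.921 to 0.945. The aortic array of trial 2 stood nearest to the muscle, with correlations of 0.884 to 0.901 against 0.821 to 0.870 for the other aortic arrays. Beside the lists, counts are also given from the 6 fits that each left out 1 array, where these moved them.

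Of 25264 probes well above background on all 3 arrays of either tissue, 1431 were higher in the aortic and 952 in the muscle endothelium (limma, Benjamini-Hochberg adjusted p under 0.05), which is 9.43% of the probes tested. Aortic calls were thus 60.1% of all calls, but 77.5% in the log2 table that the authors deposited, which centres the tissues at different values and shifts the median difference of all probes from -0.27 to 0.00. Changes are best read against that median, since the aortic arrays as a whole sat slightly below the muscle arrays on the present scale. The aortic share was 53.1% (1047 against 925 probes) where all 6 arrays had to be well above background. It was 52% with trend and robust variances, 48% in a fit over all 24 arrays, and 78% to 79.2% without 1 muscle array. Over 13649 genes, each read on its brightest tested probe, 7.3% were called higher in the aorta and 3.91% higher in the muscle, with a median difference of -0.20. Every aortic array exceeded every muscle array at 15.4% of the genes, and every muscle array exceeded every aortic array at 22.7%. All list counts below are to be read beside these shares of all genes. The median difference was 3.56 for the probes called higher in the aorta and -2.12 for those called higher in the muscle. The counts turned on single arrays. Without the aortic array of trial 1, 2 or 3 the aortic counts were 731, 2160 and 593 and the muscle counts 493, 2375 and 365, without the muscle array of trial 1, 2 or 3 they were 849, 608 and 756, and 239, 160 and 208, and without trial 3 of both tissues no probe was called (limma; 4186 at an unadjusted p under 0.05). In RNA from many cells, fewer cells of a type and less RNA per cell cannot be told apart.

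**Figure D1:**
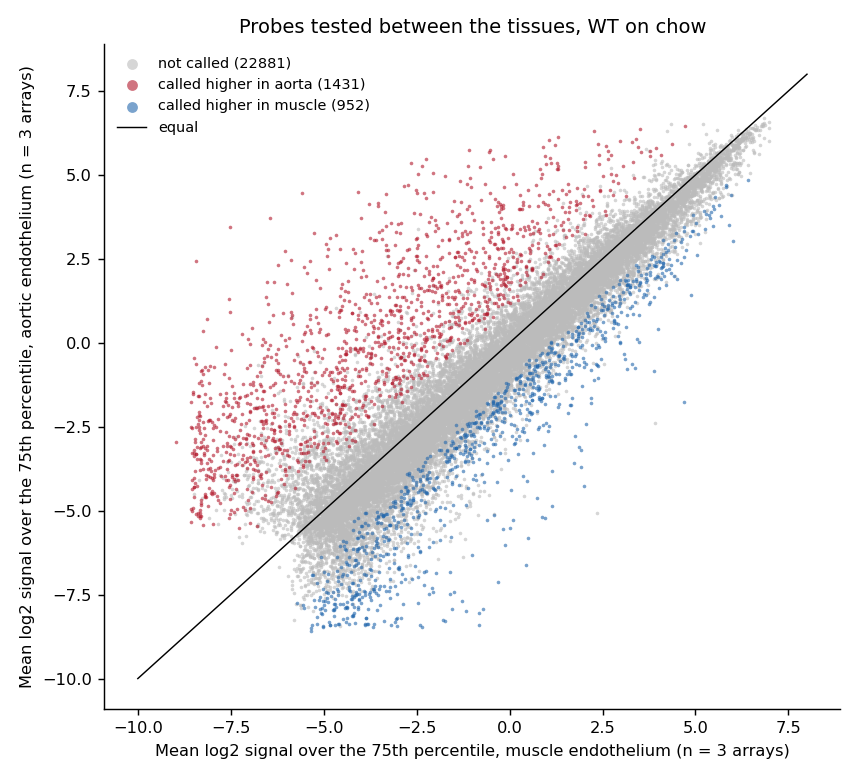
Mean log2 signal of each of the 25264 tested probes in muscle endothelium (horizontal) and aortic endothelium (vertical), n = 3 arrays each, with the line of equal signal. The 1431 probes called higher in the aorta (red) fan out far above the line, while most of the 952 called higher in the muscle (blue) lie in a band close below it.

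The endothelial label was first set against its markers. All 25 pan-endothelial markers were well above background on every array of both tissues. None was called higher in the aorta, and 2 were called higher in the muscle, the angiopoietin-receptor relative Tie1 and the junction protein Esam. Tie1 read 1.73, 2.80 and 1.68 in the aorta against 4.12, 4.65 and 4.23 in the muscle, a difference of -2.26 ± 0.39 (SE, n = 3 arrays per tissue; limma, adjusted p = 0.0189). Cdh5 read 5.04, 5.52 and 4.49 in the aorta against 5.70, 5.61 and 5.70 in the muscle, and its difference of -0.65 did not pass the test (limma, adjusted p = 0.249). For 18 of the 25 markers every muscle array exceeded every aortic array, as at 22.7% of all genes, and the median difference was -0.97 beside -0.20 over all genes. The summed signal of the list was 489 to 883 times the 75th percentile in the aorta and 1116 to 1184 times in the muscle. Without the aortic array of trial 2, which had the highest aortic sum, 12 of the 25 were called higher in the muscle, and without any other single array none was. Eng itself read 3.42, 4.14 and 2.84 against 4.31, 4.87 and 4.43.

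Markers of other cells that the aorta or the muscle could bring into the sorted population were read from lists of the same kind. Fibroblast markers had the broadest shift. For all 14 every aortic array exceeded every muscle array, as at 15.4% of all genes. Of the 14, 12 were called higher in the aorta and none in the muscle, beside 7.3% and 3.91% of all genes. The median difference was 5.16, and their summed signal was 479 to 913 in the aorta against 43 to 166 in the muscle. The count was 7 without the muscle array of trial 3, 8 without the muscle array of trial 2 or the aortic array of trial 3, and 0 without trial 3 of both tissues, where no probe was called. By trial, the aortic fibroblast sums were 913, 479 and 613, beside pan-endothelial sums of 561, 883 and 489 on the same arrays. The fibroblast sum was thus the larger in trials 1 and 3. Sums over lists of different genes do not measure shares of cells. Aortic endothelium is here the name of the sorted CD105+/CD45- sample, whatever cells it held. Pi16, a marker of adventitial fibroblasts, read 6.31, 4.95 and 5.80 in the aorta and 1.16, -1.48 and -1.36 in the muscle (difference 6.25 ± 0.77, SE, n = 3 per tissue; limma, adjusted p = 0.00758). Pdgfra, the PDGF receptor of fibroblasts, read 4.80, 2.42 and 4.42 against 0.21, -1.84 and -1.44 (4.91 ± 0.78; limma, adjusted p = 0.0154). Both of these genes thus lay above the 75th percentile on every aortic array and had no muscle array near the aortic values. Dcn and Gsn, whose muscle signals also lay above the 75th percentile, had differences of 2.19 and 2.09 and missed the threshold (limma, adjusted p = 0.0680 and 0.0684).

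Skeletal muscle fibre markers stood the other way. None of 15 was called higher in the aorta and 10 were called higher in the muscle. All 15 had every muscle array above every aortic array, as had 22.7% of all genes, and the median difference was -6.08. Their summed signal was 2.02 to 7.55 in the aorta and 45 to 177 in the muscle, where trial 1 was the highest. The count was 5 without the aortic array of trial 1, and 5, 4 and 5 without the muscle array of trial 1, 2 or 3. Some fibre markers passed the filter through the muscle arrays alone. Where all 6 arrays had to be well above background, 9 were tested and 8 called higher in the muscle (median -3.95). Satellite cell markers were called higher in the muscle for 7 of 10 (median -2.39), among them the myogenic factors Pax7 and Myf5, while Sdc4 was called higher in the aorta but not in the paired fit, which has the trial as a replicate block, and Myf5, Calcr and Chodl were not well above background on any aortic array. The muscle count was 4 without the muscle array of trial 1 or 2. The Sdc4 call was lost without any single array but the aortic array of trial 2. Of the 4 satellite cell markers well above background on all 6 arrays, 2 were called higher in the muscle and 1 in the aorta (median -1.78). The summed signals overlapped, at 1.51 to 2.80 in the aorta and 1.79 to 2.46 in the muscle, but such a sum follows the brightest members. For 8 of the 10 satellite cell markers every muscle array exceeded every aortic array, as at 22.7% of all genes.

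Smooth muscle and pericyte markers were few among the calls. Of 14 smooth muscle markers, 4 were called higher in the muscle (Myh11, Smtn, Des and Rgs5) and none in the aorta, with sums of 52.6 to 72.7 and 77.9 to 120. The contractile actin Acta2 read 4.81, 5.12 and 4.99 in the aorta and 5.55, 4.40 and 5.06 in the muscle, and these values overlapped. In the paired fit the smooth muscle counts were 1 higher in the aorta and 1 in the muscle, since Cnn1 passed the test (limma, adjusted p = 0.0384) and Myh11, Des and Rgs5 missed it (0.0840, 0.0604 and 0.0823). Left-out arrays gave 0 to 5 muscle calls, with 5 without the aortic array of trial 2, 1 without the muscle array of trial 3 and 0 otherwise. Of 11 pericyte markers, 3 were called higher in the muscle (2 in the paired fit, 6 without the aortic array of trial 2, and 1 without the aortic array of trial 1 or any muscle array) and 1 in the aorta. The proteoglycan Cspg4 (NG2) read -0.66, -0.50 and -0.14 against 2.26, 1.96 and 1.72, a difference of -2.42 ± 0.29 (SE, n = 3 per tissue; limma, adjusted p = 0.00725). Anpep was the aortic exception, at 2.92, a call lost without any single array but the aortic array of trial 2.

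CD45+ cells had been gated out, and macrophage and leukocyte markers were low. Ptprc, the gene of CD45, was well above background on 1 array of each tissue. Itgam, Fcgr1 and Cd79a were also below the filter, and Cd14 was the only one of 12 tested markers called (1.11, higher in the aorta; paired fit, adjusted p = 0.0527), a call kept without the aortic array of trial 2 but lost without any other array. The summed signal of the list was 6.37 to 7.26 in the aorta and 2.12 to 5.05 in the muscle. Red cell and platelet markers gave 0 calls of 7 (limma; 3 at an unadjusted p under 0.05), and 1 in the muscle with the scan session as a block. Nerve-sheath markers split, with S100b and Pmp22 called higher in the aorta and 2 markers, Mbp among them, in the muscle, though another probe of Mbp differed by 5.98 and the paired fit lost S100b and Pmp22 (limma, adjusted p = 0.0673 and 0.0663), as did leaving out any array but the aortic array of trial 2. The list's summed signal was 34.5 to 84.4 in the aorta and 16.4 to 20.1 in the muscle. Of 3 tested mesothelial markers Wt1 and Krt18 were called higher in the aorta (4.24 and 4.20; Krt18 lost in the paired fit, adjusted p = 0.0543), and of 6 tendon and cartilage markers Scx, Col2a1 and Comp (2.97, 5.18 and 4.34; Scx lost in the paired fit, adjusted p = 0.0698), with another probe of Col2a1 at -0.19 and no tendon or cartilage call without the muscle array of trial 2. Defining mesothelial markers Msln and Upk3b were below the filter.

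**Figure D2:**
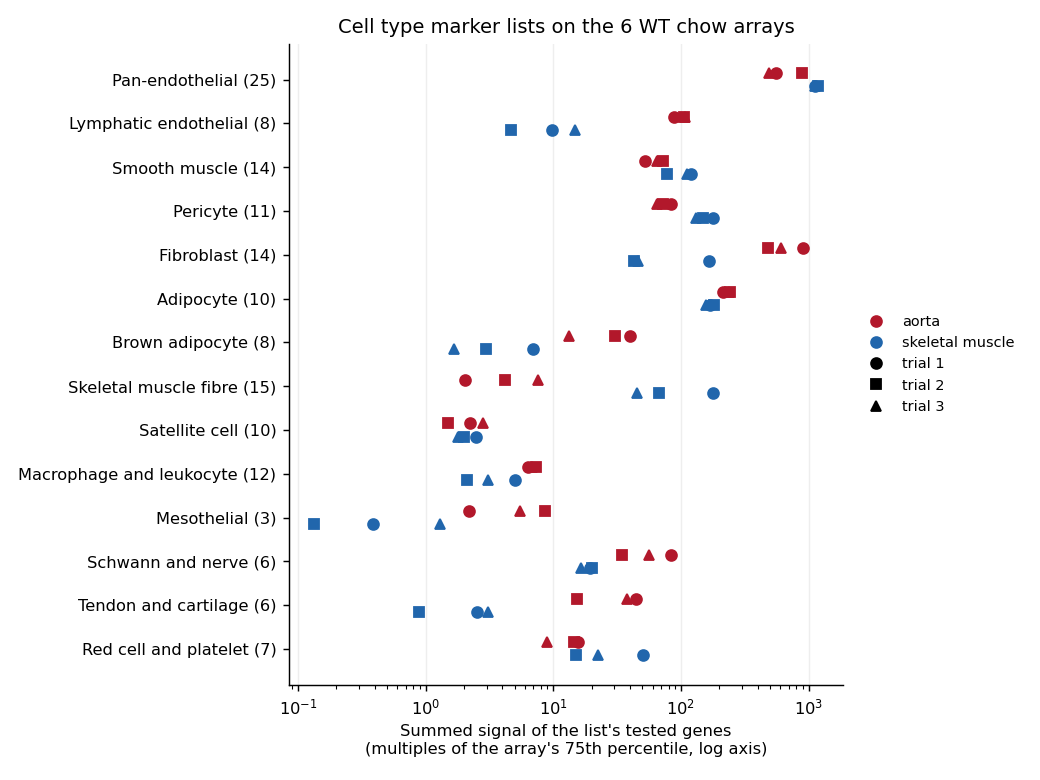
Summed signal of the tested genes of 14 cell type marker lists on each of the 6 arrays, as multiples of the array's 75th percentile on a log axis, with the number of tested genes in brackets, the tissue as colour and the trial as symbol. Fibroblast sums are 479 to 913 in the aorta and 43 to 166 in the muscle, and skeletal muscle fibre sums 2.02 to 7.55 and 45 to 177. Pan-endothelial sums are 489 to 883 in the aorta and 1116 to 1184 in the muscle.

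Lymphatic endothelial genes were high in the aortic samples. Of 8 tested markers, 5 were called higher in the aorta (median 4.20). Lyve1, the hyaluronan receptor of lymphatic vessels, read 4.39, 4.89 and 4.94 in the aorta and 0.16, -1.97 and 2.28 in the muscle (difference 4.58 ± 0.98, SE, n = 3 per tissue; limma, adjusted p = 0.0362). The chemokine gene Ccl21a read 4.45, 5.12 and 4.58 against 0.14, -3.70 and 1.57 (5.38 ± 1.24; limma, adjusted p = 0.0443). The extracellular matrix gene Reln read 2.46, 2.78 and 2.83 against -0.64, -3.02 and -0.57 (4.10 ± 0.67; limma, adjusted p = 0.0166). The aortic arrays were close together for all of these genes, and the spread lay in the muscle. In the paired fit Lyve1 and Ccl21a missed the threshold (limma, adjusted p = 0.0571 and 0.0758), which left 3 calls, and no aortic call was left without the aortic array of trial 3, 1 without that of trial 1 and 2 without the muscle array of trial 1. The master regulator Prox1 was well above background on 2 arrays of each tissue and was not tested. Flt4, the receptor for VEGF-C, went the other way at -2.43. The list's summed signal was 87.9 to 107 in the aorta and 4.64 to 14.9 in the muscle.

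Fat cell genes formed another group. Of 10 tested adipocyte markers 6 were called higher in the aorta and none in the muscle (median 3.57), and of 8 brown adipocyte markers 4 were called higher in the aorta (median 3.58). Some members passed the filter through 1 tissue alone. Where all 6 arrays had to be well above background, 9 adipocyte markers gave 5 aortic calls (median 3.06). Under that filter 4 brown adipocyte markers gave 1 aortic call (median 1.26). Adipoq, the gene of adiponectin, read 2.07, 2.79 and 4.35 in the aorta and -1.12, -1.53 and -2.22 in the muscle (4.70 ± 0.62, SE, n = 3 per tissue; limma, adjusted p = 0.00908). Cidea, a lipid droplet gene of brown fat, read 3.72, 4.03 and 1.61 against -2.69, -3.91 and -4.67 (6.88 ± 0.77; limma, adjusted p = 0.00642). Ucp1, the uncoupling protein of thermogenic fat, read 3.68, 2.86 and 0.80 in the aorta and was not well above background on any muscle array, so that it was at least 415-fold higher in the aorta (limma, adjusted p = 0.00422). Here and below such a bound sets the mean of the bright tissue against the lowest signal among probes well above background on each dim array, or against the probe's own signal where that was higher. A gene with such a bound passed the filter through its bright tissue alone. Its limma p also rests on dim-tissue signals near background, and so adds no support to the bound. Fabp4, which capillary endothelium also expresses, read 6.55, 6.69 and 6.28 against 6.80, 6.94 and 6.84 and was not called (limma, adjusted p = 0.407). Lep was not well above background on any array. Within the scan session that held trials 2 and 3, 1 call was left in each of the adipocyte and brown adipocyte lists, beside 151 aortic calls over all probes.

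Leading genes were chosen among called genes well above background on all 6 arrays whose tissues did not overlap, so the lack of overlap is no finding. The 12 largest differences toward the aorta ranged from 7.08 to 8.02. Mmp3, a matrix metalloprotease (chr9:7445822-7455975, GRCm38.p6), led them with 5.91, 4.64 and 5.51 in the aorta and -0.81, -4.82 and -2.35 in the muscle, a 259-fold difference (8.02 ± 0.97, SE, n = 3 per tissue; limma, adjusted p = 0.00737). Gpnmb, a transmembrane glycoprotein (chr6:49036518-49058182), read 3.88, 2.17 and 3.58 against -3.66, -5.25 and -5.12 (7.89 ± 0.61; limma, adjusted p = 0.00422). F3, the gene of tissue factor, which starts coagulation (chr3:121723537-121735052), read 4.73, 2.72 and 4.80 against -2.05, -4.83 and -3.75 (7.63 ± 0.85; limma, adjusted p = 0.00635). The trial 2 array was the lowest aortic array for each of these 3 genes. Ptgis, the synthase of the vasodilator prostacyclin (chr2:167203194-167252150), read 2.47, 1.57 and 2.59 against -3.51, -6.79 and -4.32 (7.08 ± 0.83; limma, adjusted p = 0.00687). The others were the Wnt antagonist Sfrp4 (7.72), the secreted lectin Clec11a (7.71), the matrix protein fibulin-1 (Fbln1, 7.64), the metalloprotease Mmp23 (7.52), the cytochrome P450 Cyp1b1 (7.49), the TGF-beta family ligand Gdf10 (7.42), Tmem119 (7.24) and the retinol carrier Rbp4 (7.15).

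Genes well above background on all aortic arrays and no muscle array gave further bounds. Besides Ucp1, the bound was at least 124-fold for the cytochrome P450 Cyp2b9, 97.9-fold for the homeodomain factor Isl1, 72.2-fold for the carboxypeptidase Cpz (another probe differed by 1.78), 69.9-fold for the fibroblast-lineage factor Tcf21 and 49.6-fold for Plcxd3. Fbln1 also belongs to the fibroblast list. Some named genes were detected on part of the muscle arrays, so that their differences rest in part on signals near background. Ccl7, Sfrp2 and Col4a5 were well above background on 1 of the 3, and Wt1, Gdf6, Bmper, Sfrp1, Dkk3, Col8a2, Cldn10, Ptgs2 and Serpine2 on 2. The fibroblast list's sum and those of the lymphatic, adipocyte and brown adipocyte lists moved with these genes, and their part in the differences was not tested.

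Toward the muscle, the 12 genes chosen in the same way, well above background on all 6 arrays, had differences from -6.45 to -4.48. Most were genes of the contractile fibre. Tnnc2, fast troponin C, read -1.89, -4.44 and 1.06 in the aorta and 5.72, 4.33 and 4.02 in the muscle, a difference of -6.45 ± 1.31 (SE, n = 3 per tissue; limma, adjusted p = 0.0309), which missed the threshold in the paired fit (0.0583). Ckm, muscle creatine kinase (chr7:19411094-19421583), read -5.45, -4.75 and -5.40 against 2.38, 0.31 and -0.06 (-6.08 ± 0.65; limma, adjusted p = 0.00611). The muscle array of trial 1 was the highest for both genes. The Z-disc gene Myoz1 (-6.00), fast troponin T (Tnnt3, -5.60), Nrap (-5.38), calsequestrin 2 (Casq2, -5.31), the myosin light chain Myl1 (-4.73), muscle phosphoglycerate mutase (Pgam2, -4.58) and perinatal myosin (Myh8, -4.56) followed. For Myh8 the paired fit gave an adjusted p of 0.0951, and Myl3 (-4.48) had another probe at 0.10.

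Scn2b and Prom1 were also among these 12 genes, of which only Tnnc2, Ckm and Tnnt3 are on the fibre list. Scn2b, a sodium channel subunit (chr9:45117876-45130070), read -4.25, -2.38 and -2.95 in the aorta and 2.51, 1.61 and 1.68 in the muscle (-5.13 ± 0.54, SE, n = 3 per tissue; limma, adjusted p = 0.00594). Prom1, the gene of CD133 (chr5:43993621-44102047), read -4.40, -1.69 and -3.24 against 2.07, 1.78 and 1.73 (-4.97 ± 0.65; limma, adjusted p = 0.00898). Tissues without overlap were a condition for naming both genes. Bounds toward the muscle were at least 60.2-fold for the Z-disc protein myotilin (Myot), 45.7-fold for the fast myosin Myh1, 42.4-fold for the calcium pump Atp2a1 and for the BMP antagonist Chrdl2, 33.5-fold for Myo18b, 30.9-fold for Klra9, 26.6-fold for Abra and 25.8-fold for Xirp2. Second probes of Myh1 and Atp2a1 differed by only -0.56 and -1.99. Chrdl2 read -0.95, -0.21 and -1.32 in the muscle. The sum of the skeletal muscle fibre list moved with this group, and its part in the differences of the genes outside the list was not tested.

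**Figure D3:**
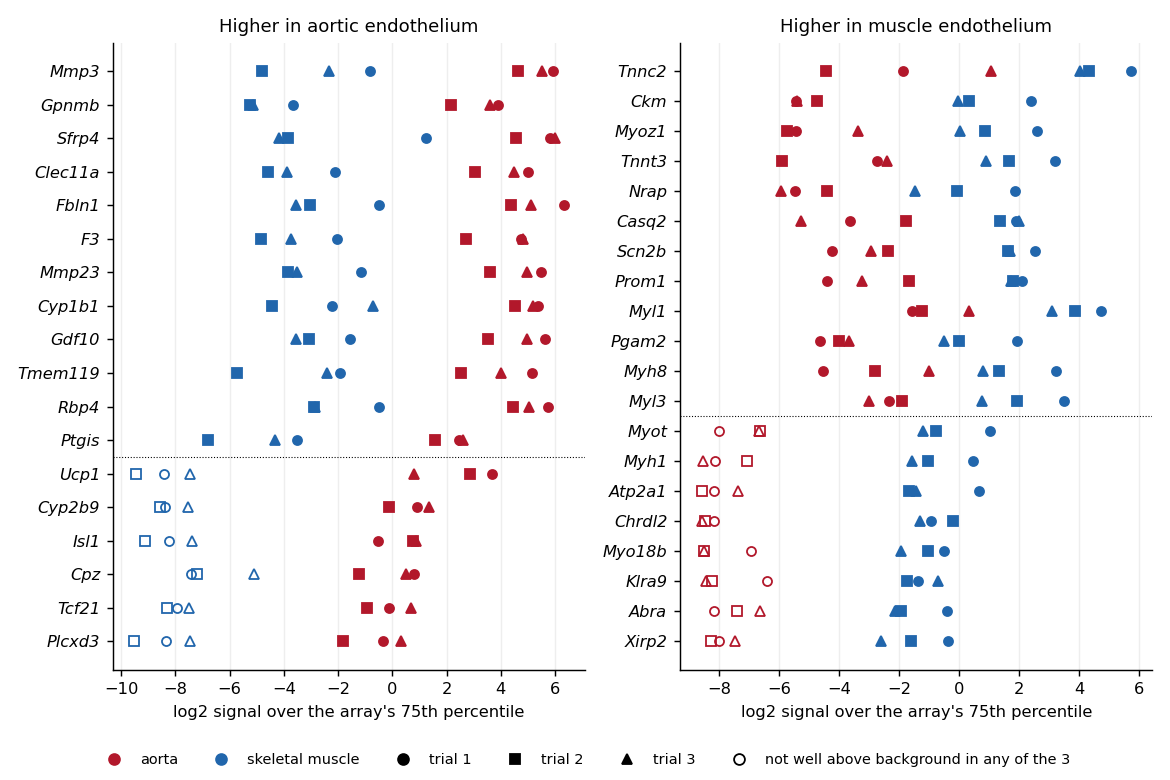
Log2 signal over the array's 75th percentile on each of the 6 arrays for the genes with the largest differences toward the aorta (left) and toward the muscle (right), with the tissue as colour and the trial as symbol. Genes under the dotted line were not well above background on any array of the dim tissue (open symbols). Genes above it were chosen among those whose tissues do not overlap.

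Because many of the muscle-high genes belong to 1 programme, the promoters of the muscle fibre markers were searched for the CArG box, the element that serum response factor binds, and for the E-box CANNTG, the element of myogenic bHLH factors, on both strands. Of the 15 tested fibre markers, 12 had a promoter in the RefSeq table of GRCm38.p6. The 150 bases before the start, or before any start of a gene with several, held a CArG box in 2 of the 12 and an E-box in 7 of the 12. Over all 32851 windows of that length the shares were 0.916% and 47.7%, counted per window and not per gene, so the measures are not quite alike. The windows of Acta1 (chr8:123894776-123894925, minus strand), Myh4 (chr11:67237662-67237811, plus strand) and Ckm (chr7:19410944-19411093, plus strand) are given 5′ to 3′ to show both genes with the match beside a strongly muscle-high fibre gene without it, with the CArG box in capitals.
Acta1: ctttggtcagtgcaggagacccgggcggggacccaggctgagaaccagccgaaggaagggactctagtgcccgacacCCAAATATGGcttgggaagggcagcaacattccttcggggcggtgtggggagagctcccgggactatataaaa
Myh4: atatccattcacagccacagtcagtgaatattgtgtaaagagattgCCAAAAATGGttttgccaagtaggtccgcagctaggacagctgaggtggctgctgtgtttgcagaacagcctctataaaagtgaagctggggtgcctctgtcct
Ckm: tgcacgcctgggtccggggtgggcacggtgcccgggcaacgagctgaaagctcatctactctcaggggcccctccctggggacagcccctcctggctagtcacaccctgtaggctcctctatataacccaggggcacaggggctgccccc
Acta1, skeletal actin, read -1.30, 0.02 and 0.24 in the aorta and 4.26, 2.70 and 2.32 in the muscle, a difference of -3.44 ± 0.63 (SE, n = 3 per tissue; limma, adjusted p = 0.0234; 0.0736 in the paired fit). Myh4, the fast myosin IIb, read -6.71, -8.58 and 0.07 against 3.61, 2.02 and 1.41, and with 1 aortic array far above the others its difference of -7.42 ± 2.10 was not called (limma, adjusted p = 0.0747). A matched letter string is a description of these windows and no evidence of binding.

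Arterial, venous and capillary genes were then read, since the aorta is an artery and the muscle bed is mostly capillary. Of 21 arterial identity genes, 1 was called higher in the aorta and 4 in the muscle, with a median of -1.18. Hey2, a Notch target of arterial cells, read -1.36, -0.38 and -0.84 in the aorta and -4.46, -5.12 and -4.90 in the muscle (3.96 ± 0.35, SE, n = 3 per tissue; limma, adjusted p = 0.00463). Its relative Hey1 went the opposite way, at 3.26, 3.72 and 2.58 against 5.13, 4.76 and 4.66 (-1.67 ± 0.36; limma, adjusted p = 0.0380; 0.0516 in the paired fit). The Notch ligand Dll4 (-2.23; paired fit, adjusted p = 0.0560), the receptor Notch4 (-2.05) and the chemokine receptor Cxcr4 (-3.45) were the other genes higher in the muscle, and the paired fit left 2 of the 4. Gja5, the connexin of large arteries, read 0.00, 1.23 and 2.31 against 0.35, -0.15 and 0.33, and Efnb2 read 0.12, 1.08 and 1.23 against 2.17, 1.80 and 2.75. Neither was called (limma, adjusted p = 0.307 and 0.0796). Without the aortic array of trial 2, 10 arterial genes were called higher in the muscle, and without any other single array 0 to 2.

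Of 18 capillary genes, 3 were called higher in the muscle and none in the aorta (median -1.08). Tcf15, a transcription factor that with Meox2 drives fatty acid uptake genes in muscle endothelium, read 3.45, 4.19 and 2.76 in the aorta and 5.48, 5.52 and 5.39 in the muscle (-1.99 ± 0.40, SE, n = 3 per tissue; limma, adjusted p = 0.0291). The metalloprotease inhibitor Timp4 (-2.38) and the nucleoside transporter Slc28a2 (-2.20) were the others. Gpihbp1, which holds lipoprotein lipase on the capillary wall, read 6.21, 6.46 and 5.38 against 7.01, 7.08 and 6.82 and was not called (limma, adjusted p = 0.135). The count became 10 without the aortic array of trial 2, 1 without that of trial 1 or 3 and 0 without any muscle array. Among 18 fatty acid uptake genes Tcf15 was the only call (4 muscle calls without the aortic array of trial 2 and 0 without any other; 1 aortic and 2 muscle calls in the paired fit, which gained Dgat2 and Lipe), and the median of -0.33 lay near that of all genes. Of 12 venous genes only Tgfbi, which fibroblasts also secrete, was called (6.28, higher in the aorta), with 3 muscle calls beside it without the aortic array of trial 2. The pan-endothelial sum was lower on every aortic array than on every muscle array, and its part in the arterial and capillary values was not tested.

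Of 40 transcription factors tested, 7 were called higher in the aorta and 2 in the muscle, beside 7.3% and 3.91% of all genes, and the median was -0.39. Meis2, a homeodomain cofactor of HOX proteins, read 4.10, 3.80 and 3.92 in the aorta and -0.84, -2.37 and -1.41 in the muscle (5.48 ± 0.42, SE, n = 3 per tissue; limma, adjusted p = 0.00422). Its paralogue Meis1 was not well above background in any muscle sample and was at least 27.0-fold higher in the aorta (limma, adjusted p = 0.00619), while another probe differed by 2.98. Foxc2, a forkhead factor of lymphatic valves and mesenchyme, read 3.99, 3.56 and 3.42 against -1.50, -1.63 and 0.24 (4.62 ± 0.54; limma, adjusted p = 0.00673). The other aortic calls were Tbx1 (4.21), Nr2f1 (3.33), Nkx2-3 (3.18) and Gata6 (2.98). The muscle calls were the Notch target Heyl (-2.71) and Prdm16 (-2.17). The flow-induced factors Klf2 and Klf4 read 6.17, 6.05 and 5.35 against 6.50, 6.38 and 6.21, and 5.20, 5.30 and 5.14 against 5.28, 5.59 and 5.51, and neither was called (limma, adjusted p = 0.335 and 0.544). The muscle count was 15 in place of 2 without the aortic array of trial 2, 1 without that of trial 3 and 0 without any muscle array. The aortic count was 8 without the aortic array of trial 2 and 5 without that of trial 1 or 3. Without the muscle array of trial 1 or 2 it was 5 and 6.

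HOX genes, which record position along the body axis, were nearly balanced. Of 28 tested genes of the HOX and limb position list, 4 were called higher in the aorta (Hoxa10, Hoxc8, Hoxc9 and Hoxd10) and none in the muscle, with a median of 0.05. Over all genes the shares called were 7.3% and 3.91%. No call was left without the aortic array of trial 3 or the muscle array of trial 2, 1 without the aortic array of trial 1 or the muscle array of trial 1 or 3, and 6 without the aortic array of trial 2. Hoxc9 read 2.11, 0.45 and 1.72 in the aorta and -0.96, -2.11 and -2.38 in the muscle (3.24 ± 0.56, SE, n = 3 per tissue; limma, adjusted p = 0.0198). Hoxc8 was not well above background on any muscle array and was at least 2.67-fold higher in the aorta. Hoxd10 differed by 1.98 and Hoxa10 by 1.64 (limma, adjusted p = 0.0589 for Hoxa10 in the paired fit). Hoxa13, Hoxb13 and Hoxd13 of the posterior end were not well above background on any array.

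Secreted matrix and signalling genes held many of the aortic calls. Of 20 WNT pathway genes, 10 were called higher in the aorta and none in the muscle (median 3.09), but 4 without the aortic array of trial 1 or of trial 3, and 5 and 6 without the muscle array of trial 2 or 3. With all 6 arrays well above background, 14 were tested and 7 called (median 2.37). The 10 calls were the ligands Wnt2b (at least 7.65-fold) and Wnt11 (4.62), the receptors Fzd1 (3.28) and Fzd7 (3.04), and the secreted antagonists Sfrp1 (7.79), Sfrp2 (10.04), Sfrp4 (7.72), Frzb (3.78), Dkk2 (3.14) and Dkk3 (8.33). Sfrp2 read 4.66, 4.25 and 4.44 in the aorta and -1.78, -7.48 and -7.50 in the muscle, where it was well above background on the trial 1 array alone (10.04 ± 1.49, SE, n = 3 per tissue; limma, adjusted p = 0.0127). Sfrp4 read 5.82, 4.57 and 6.00 against 1.23, -3.83 and -4.18 (7.72 ± 1.41; limma, adjusted p = 0.0226). For both antagonists the muscle array of trial 1 lay far above the other muscle arrays, as it did for the fibroblast sum. The target gene Axin2, which WNT signalling induces, read -0.75, -2.56 and -0.80 against -3.20, -3.18 and -2.84 and was not called (limma, adjusted p = 0.0913).

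Of 33 BMP and TGF-beta genes, 10 were called higher in the aorta and 1 in the muscle (median 0.89), and 6 in the aorta without the aortic array of trial 1 or 3 or the muscle array of trial 2 or 3. The muscle call was 4 genes without the aortic array of trial 2 and lost without any other. With all 6 arrays well above background, 27 were tested, 8 called higher in the aorta and 2 in the muscle (median 0.21). Among ligands, Gdf10, Gdf6 (5.82) and Gdf15 (1.94) were higher in the aorta, and Tgfb1 read -1.59, -1.76 and -2.48 in the aorta and -0.17, 0.08 and -0.68 in the muscle (-1.69 ± 0.36, SE, n = 3 per tissue; limma, adjusted p = 0.0356). Among secreted modulators, Chrdl1 (6.95) and Bmper (4.83; paired fit, adjusted p = 0.0624) were higher in the aorta, and so were the latent TGF-beta binding proteins Ltbp2 (5.57) and Ltbp3 (3.54, with another probe at -0.40). Among receptors, Bmpr1a (3.09) and Tgfbr2 (1.22) were higher in the aorta, while Acvrl1, the ALK1 receptor of endothelium, read 0.00, 0.86 and -0.08 against 1.17, 1.62 and 1.94 and was not called (limma, adjusted p = 0.0751). The BMP targets Id1 and Id3 were not called either (-0.64 and -0.20).

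Elastic fibre genes followed the aorta, though not elastin itself. Of 16 tested, 10 were called higher in the aorta and none in the muscle (median 2.33), but 5 and 3 without the aortic array of trial 1 or 3, and 4 and 5 without the muscle array of trial 2 or 3. Mfap4, a microfibril protein, read 5.61, 3.08 and 4.91 in the aorta and -1.83, -2.55 and -3.21 in the muscle (7.06 ± 0.70, SE, n = 3 per tissue; limma, adjusted p = 0.00515). Loxl1, a cross-linking oxidase, read 3.97, 1.40 and 3.90 against -1.07, -3.62 and -2.88 (5.61 ± 0.90; limma, adjusted p = 0.0158). Eln read 0.39, -2.05 and -0.46 against -1.94, -2.15 and -1.05, values that overlapped and were not called (limma, adjusted p = 0.356). Fbn1 (2.41) missed the threshold as well (limma, adjusted p = 0.0562). Of 21 basement membrane genes, 5 were called higher in the aorta (Col4a5, Col8a2, Col18a1 and Lama2 among them) and 3 in the muscle (Lama3, Col4a2 and Nid2), with another probe of Lama3 at -0.48. Without the aortic array of trial 1 or 3 the counts were 2 and 1, without the muscle array of trial 1 they were 3 and 1, and without that of trial 2 or 3 they were 2 and 0. Col4a2, a chain of the common collagen IV, read 2.02, 2.70 and 1.89 against 4.04, 4.50 and 4.31 (-2.08 ± 0.32; limma, adjusted p = 0.0144). Fibroblast markers moved the same way as the WNT, TGF-beta and elastic fibre genes (12 of 14 called; sums of 479 to 913 against 43 to 166), Fbln1 and Mfap5 stand on both the fibroblast and the elastic fibre list, and the part of fibroblasts in these differences was not tested.

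**Figure D4:**
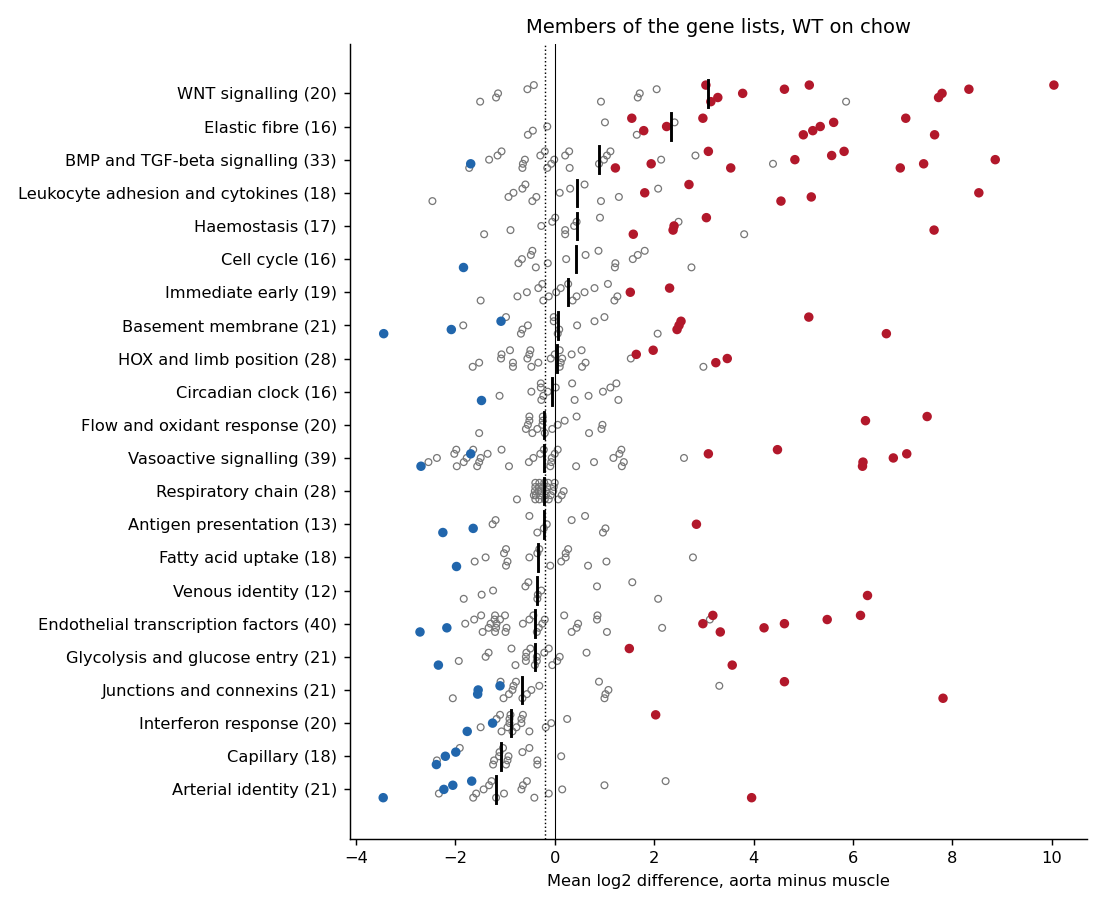
Mean log2 difference, aorta minus muscle, of each tested member of the 22 gene lists (n = 3 arrays per tissue), with the number of members in brackets, called members filled (red for aorta, blue for muscle) and the list median as a bar. The dotted line is the median of -0.20 over all genes; WNT (3.09) and elastic fibre (2.33) medians lie farthest right and arterial identity (-1.18) farthest left, and dim members are plotted at their measured difference, not at their bound.

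Of 39 vasoactive genes, 6 were called higher in the aorta and 2 in the muscle (median -0.22), beside 7.3% and 3.91% of all genes. Without the aortic array of trial 2 the balance turned, with 9 aortic and 15 muscle calls, while without any other array there were 3 to 5 aortic and at most 1 muscle call, the fewest without the muscle array of trial 2. Agt, the gene of angiotensinogen, read 2.00, 1.02 and 2.55 in the aorta and -3.67, -4.99 and -4.38 in the muscle (6.20 ± 0.51, SE, n = 3 per tissue; limma, adjusted p = 0.00422). Ren1, renin, was well above background on all aortic and no muscle arrays and was at least 31.3-fold higher in the aorta (limma, adjusted p = 0.0202), and the converting enzyme gene Ace had a difference of 0.00. In the prostanoid pathway Ptgs2, the inducible cyclooxygenase, read 1.41, -0.47 and 1.80 against -5.54, -4.75 and -7.39 (6.81 ± 0.84; limma, adjusted p = 0.00767), beside Ptgis above, while Ptgs1 had a difference of -0.06. Ramp1, the partner of the CGRP receptor (4.48), and the adrenergic receptor Adra2a (3.09, with another probe at 0.54) were also higher in the aorta. The natriuretic peptide Nppc (-2.69) and the sphingosine-1-phosphate receptor S1pr3 (-1.69) were higher in the muscle. Nos3, the endothelial nitric oxide synthase, read 0.77, 3.10 and 1.46 against 3.06, 3.66 and 3.17, with an overlap through the aortic array of trial 2 (-1.52; limma, adjusted p = 0.158), and Edn1, endothelin, had a difference of 0.06.

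Of 17 haemostasis genes, 5 were called higher in the aorta and none in the muscle (median 0.44), but 2 without the aortic array of trial 1 or 3 or the muscle array of trial 3, and 3 without the muscle array of trial 2. Besides F3 they included its inhibitor Tfpi (2.40), the plasminogen activator Plat (1.58; paired fit, adjusted p = 0.0527) and the protease inhibitor Serpine2 (3.05). Tfpi read 2.26, 2.07 and 2.30 in the aorta and -0.30, -0.50 and 0.23 in the muscle (2.40 ± 0.30, SE, n = 3 per tissue; limma, adjusted p = 0.00766). Vwf read 5.40, 6.40 and 5.39 against 6.00, 5.99 and 6.03 and was not called (limma, adjusted p = 0.645). Of 18 leukocyte adhesion and cytokine genes, 5 were called higher in the aorta and none in the muscle (median 0.45), but 3 and 1 without the aortic array of trial 1 or 3, and 2 without the muscle array of trial 2 or 3. Vcam1, the adhesion molecule of activated endothelium, read 3.55, 4.33 and 4.29 against 2.22, 1.82 and 2.71 (1.81 ± 0.36; limma, adjusted p = 0.0304; 0.0510 in the paired fit). Il6 read 4.10, 3.23 and 4.85 against -3.42, -0.63 and 0.76 (5.16 ± 1.04; limma, adjusted p = 0.0303). The chemokines Ccl2 (4.55), Ccl7 (8.53) and Cxcl1 (2.70) were the others, and Icam1 and Sele were not called (0.93 and 2.08).

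Junction genes gave 2 aortic and 3 muscle calls of 21 (median -0.65). Cldn10 read 3.25, 0.97 and 3.13 in the aorta and -4.20, -5.53 and -6.34 in the muscle (7.81 ± 0.78, SE, n = 3 per tissue; limma, adjusted p = 0.00531), and Ocln was at least 9.74-fold higher in the aorta (limma, adjusted p = 0.0354; 0.0901 in the paired fit). The gap junction gene Gja1 read 0.35, 0.19 and 0.70 against 1.99, 1.76 and 2.11 (-1.54 ± 0.28; limma, adjusted p = 0.0212). Esam and Cdh11 were the other muscle calls, and Cdh11 (-1.10; paired fit, adjusted p = 0.0543) had a second probe that differed by 5.75. Cldn5, the main claudin of endothelium, was not called (-0.92; limma, adjusted p = 0.116). With the trial as a replicate block the counts were 1 and 2, without the aortic array of trial 2 they were 3 and 6, without that of trial 3 they were 1 and 1, without that of trial 1 they were 2 and 0, and without any muscle array 1 and 0.

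The lists of this paragraph had few calls, and over all genes 7.3% were called higher in the aorta and 3.91% in the muscle. Interferon-response genes gave 1 aortic call of 20 (Ifi27l2a, 2.03) and 2 muscle calls (Irf7, -1.76, and Usp18, -1.25), with a median of -0.87. The muscle calls were 7 without the aortic array of trial 2 and 0 without any other single array, and the aortic call was lost without the muscle array of trial 2 or 3. In antigen presentation, 1 of 13 genes was higher in the aorta (H2-DMb1, 2.85) and 2 in the muscle, the peptide transporters Tap1 (-2.25) and Tap2 (-1.64; paired fit, adjusted p = 0.0543), with 4 muscle calls without the aortic array of trial 2 and 0 without any other. The H2-DMb1 call was lost without the aortic array of trial 1 or 3 or the muscle array of trial 3. Immediate early genes, which respond to handling of tissue, gave 2 aortic calls of 19 (Myc, 2.31, with another probe at 0.66, and Nr4a1, 1.52; paired fit, adjusted p = 0.0739) and no muscle call, and both were lost without any array but the aortic array of trial 2. Fos read 5.95, 5.41 and 5.53 against 5.10, 5.49 and 5.23, which overlapped. Clock genes gave 1 muscle call of 16 (Per1, -1.49; paired fit, adjusted p = 0.0546). Cell cycle genes gave 1 muscle call of 16 (Mcm5, -1.84), and both the clock and the cell cycle call were lost without the aortic array of trial 3 or any 1 of the 3 muscle arrays (Per1 also without the aortic array of trial 2, and Mcm5 also without that of trial 1).

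Of 28 respiratory chain genes none was called in either direction at an adjusted p under 0.05 by limma (0 also at an unadjusted p under 0.05), and the median was -0.22. Of 21 genes of glycolysis and glucose entry, Hk2, the insulin-regulated hexokinase (3.57), and Pdk4 (limma, adjusted p = 0.0489; 0.0789 in the paired fit) were higher in the aorta and Pfkl (-2.34) in the muscle. Without 1 array there were 0 or 1 aortic calls, and 3 muscle calls without the aortic array of trial 2. Hk2 read 1.67, 1.17 and 2.27 in the aorta and -0.69, -2.29 and -2.63 in the muscle. Slc2a4, the insulin-responsive glucose transporter, read 0.03, 0.86 and 0.38 against 2.44, 1.41 and 1.60 and was not called (limma, adjusted p = 0.0714). The flow and oxidant response list gave 2 aortic calls of 20, Cyp1b1 and Pi16, described above.

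The same contrast was then read in 2 other groups of the series, on arrays that are not shared with the present comparison but lie on the same 6 slides. These were mice labelled galectin-3-deficient (KO; deletion of exons 2 to 4 of Lgals3) on chow and WT mice on a high-fat diet (HFD), 3 arrays per tissue each. The probe for Lgals3 read 2.80, 2.24 and 2.64 in WT and 3.88, 4.53 and 4.16 in KO aorta on chow, and 4.77, 4.98 and 4.31 in WT and 5.08, 5.12 and 4.64 in KO muscle. Where this probe lies in the gene was not given in the sources used here, so it does not check the labels. At 24 probes that differed by more than 2 log2 between the strains in trials 2 and 3 on chow, in both tissues, the WT chow arrays of trial 1 lay at 0.18 (aorta) and 0.12 (muscle) on a scale from 0 (WT) to 1 (KO). The chow arrays of trials 2 and 3 chose these probes and set this scale. The WT HFD arrays of trial 1 lay at 0.30 and 0.49, that of the muscle about midway between the strains. Those of trials 2 and 3 lay at 0.25 and 0.22 in the aorta and at 0.08 and -0.02 in the muscle. Leaving out trial 1 thus takes out the midway muscle array, while the aortic arrays that stay lay near that of trial 1. For WT HFD the same-sign shares, the medians of the calls and the interaction count are therefore also given without trial 1. All other WT HFD values below, with those of single genes and lists, include it.

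Of the 1431 probes higher in the WT chow aorta, 97.9% had the same sign in KO chow, where 33.4% of all tested probes were higher in the aorta. Of the 952 probes higher in the muscle, 96.2% had the same sign there, against 66.6% of all tested probes. In WT HFD the same-sign shares were 97.2% and 95.4%, against 36.8% and 63.2% of all tested probes. Without trial 1 the same-sign shares were 97.6% and 91.1%, and the shares of all tested probes were not computed for that setting. The median difference of the aortic calls was 3.56 in WT chow, 2.75 in KO chow and 3.19 in WT HFD (3.43 without trial 1). That of the muscle calls was -2.12, -1.29 and -1.62 (-1.35 without trial 1). Since the probes were chosen in WT chow, the larger medians there follow in part from the choice. In a fit over all 24 arrays, 949 of the aortic calls were also called in KO chow (66.3% of the WT chow calls and 77.3% of the 1228 called there) and 1148 in WT HFD (80.2%, and 49.9% of 2300). For the muscle calls the numbers were 269 (28.3%, and 48% of 561) and 534 (56.1%, and 22.8% of 2339). The WT chow calls in these shares (1431 and 952) come from the fit of the WT chow arrays alone. In the fit over all 24 arrays, WT chow itself had 2094 aortic and 2268 muscle calls. The shares thus set calls of unlike fits side by side, and the overlap within the fit over all 24 arrays is not given here.

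No probe had a tissue difference that differed between WT chow and KO chow among 26160 tested, or between WT chow and WT HFD among 26574 (limma interaction contrasts, 0% of the probes in each; 792 and 952 at an unadjusted p under 0.05). Both counts were also 0 without trial 1. These zeros do not show that the tissue differences were equal. At single genes, Mmp3 differed by 8.74 in KO chow and 7.24 in WT HFD, Ucp1 by 11.33 and 9.01 and Ckm by -7.33 and -7.23. Chrdl2 differed by -7.59 in WT chow, -6.22 in KO chow and -3.32 in WT HFD, and Scn2b by -5.13, -4.39 and -2.26. The list counts for KO chow and WT HFD come from the fit over all 24 arrays, not from the fit of 6 arrays used above. In that fit WT chow had 13 of 14 fibroblast and 6 of 10 adipocyte calls in the aorta. It had 14 of 15 skeletal muscle fibre and 11 of 25 pan-endothelial calls in the muscle. Fibroblast markers were called higher in the aorta for 12 of 14 in KO chow and 11 of 14 in WT HFD (medians 4.50 and 4.18), and skeletal muscle fibre markers higher in the muscle for 11 and 13 of 15 (-5.91 and -6.36). Pan-endothelial markers were called higher in the muscle for 0 of 25 in KO chow and 19 of 25 in WT HFD, with medians of -0.61 and -1.36. For the adipocyte list the counts were 5 aortic and 0 muscle calls in KO chow (median 2.50), and 1 and 1 in WT HFD (median -0.11). The differences between groups in these list counts were not tested.

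**Figure D5:**
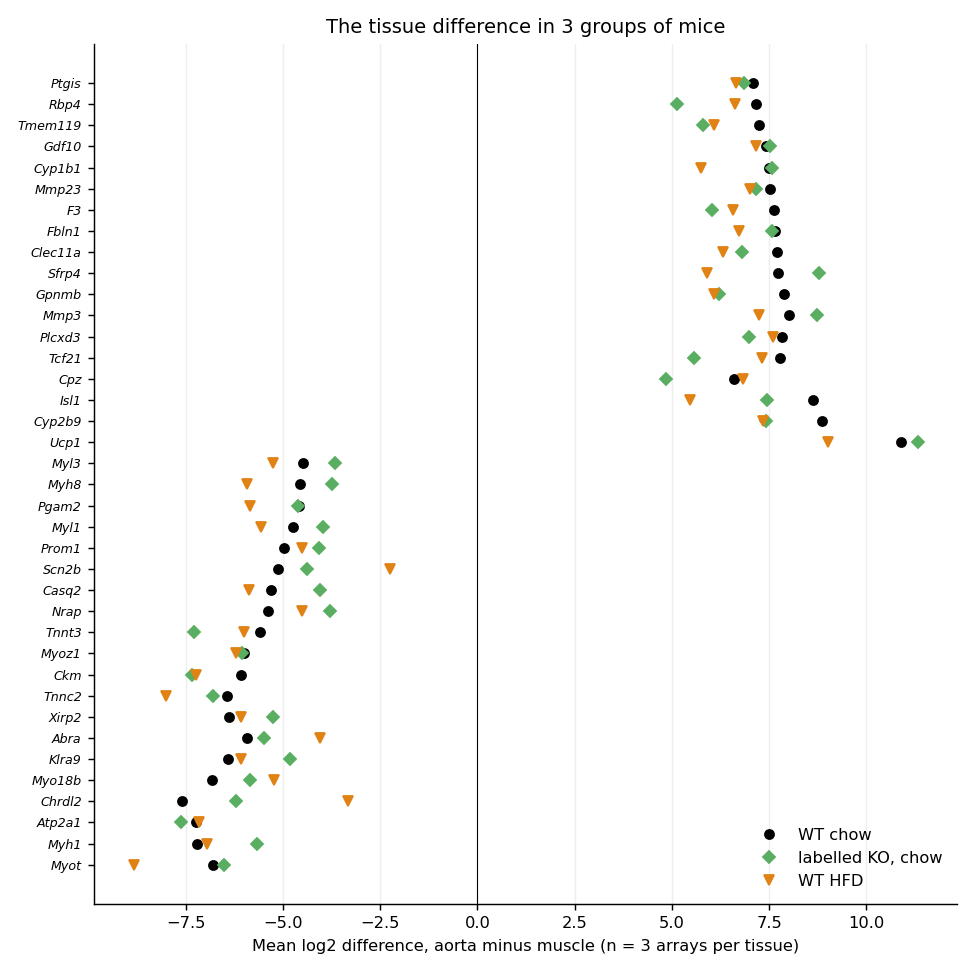
Mean log2 difference, aorta minus muscle, of the leading genes in WT chow, in the arrays labelled KO on chow and in WT HFD (n = 3 arrays per tissue and group). Every gene keeps its sign in all 3 groups; Chrdl2 (-7.59 in WT chow and -3.32 in WT HFD) and Scn2b (-5.13 and -2.26) are among the genes whose points lie apart.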

How the data were processed

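The 24 arrays were single-colour Agilent whole mouse genome arrays. The deposited intensity values are the processed signals of Agilent Feature Extraction (version 9.1 per the labels, 10.5.1.1 per the file headers), with the background already subtracted by the authors. A second deposited file, in log2 units, was found to hold the log2 processed signal plus a constant per array. Here each array's log2 processed signal was set against the 75th percentile of its 43379 non-control spots, flagged outlier spots were left out, and spots of a probe were averaged to 41174 probes, of which 27198 matched 18539 gene symbols of GRCm38.p6 by accession. Detection (well above background) needed at least 0.5 of a probe's spots on an array, and probes detected on all arrays of either tissue were tested. Array number limits the precision; the median SD within a tissue was 0.488 log2.

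The 6 arrays were fitted with limma 3.58.1 (R 4.3.3) and Benjamini-Hochberg adjustment, with 4 residual degrees of freedom. Nothing shows more than 3 separate pools per tissue, so p-values measure only the spread between these samples. Aorta and muscle of a trial came from the same pooled mice, which pairs the arrays: deviations from the tissue means correlated at 0.293, 0.122 and 0.237 within trials and at -0.264 to 0.022 across them. The arrays of trial 1 were scanned in another session than trials 2 and 3. The genes named were, first, the 12 with the largest difference in each direction. These were taken from genes called, well above background on all 6 arrays and without overlap between the tissues. The 8 largest bounds in each direction were added, and up to 6 members of each of 36 lists (8 to 45 genes each, 660 genes, 14 lists of cell type markers). Of the list members, those with the largest differences were taken, called genes first. Some of these genes are not reported here. Other list members were named after their values were seen. Members and lists were chosen with earlier results of these data known. Gene values come from the brightest tested probe. Background, normalization, filter, block and left-out arrays were varied. Scripts were tested on simulated data.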

Additional observations from a re-analysis of the deposited data

How the results depend on the processing

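With the trial as a replicate block (the paired fit) 1346 probes were higher in the aorta and 779 in the muscle, and 1718 of the 2383 calls were kept. Besides the genes whose paired p stands in the report, it lost Pvalb (adjusted p = 0.067) and gained Ramp3, Dgat2 and Lipe (0.0432, 0.0404 and 0.0382), and it moved the skeletal muscle fibre count from 10 to 8, the elastic fibre count from 10 to 9, the capillary muscle count from 3 to 4 and that of transcription factors from 2 to 3. Leaving out arrays moved the aortic count between 0 and 2160 and the muscle count between 0 and 2375. The highest counts came without the aortic array of trial 2. Without trial 3 of both tissues limma called none (4186 at an unadjusted p under 0.05), without trial 1 of both 151 and 95, and leaving out any muscle array gave 160 to 239 muscle calls. With no filter on dim probes the counts were 820 and 343, and by the methods' one-sample test on the 3 ratios 2 and 0 (5664 unadjusted). The muscle count was 515 in the deposited table, 1696 with trend and robust variances, 2268 with all 24 arrays and 2101 with the slide as a random block. Probes past 1 log2 in all 3 trials numbered 3150, but 2000 where all 6 arrays had to be well above background, and 3857 to 6001 without 1 trial, the most without trial 2. The interaction with KO chow had 4 calls after quantile normalization and 1 with the slide as a random block. Of the values of named genes under alternatives, 4154 stayed on the same side of the threshold, 914 lost the threshold and 153 gained it. Among values called in the main or the alternative fit, 0 reversed. A value called in neither was counted as the same whatever its sign. The causes were not tested. The WT HFD values without trial 1 were chosen after seeing the data.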
